A study of Mus musculus with 8 samples.

Results

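Chylomicrons are built in enterocytes around apolipoprotein B, and 10 genes of that pathway and of the Apoa4 locus were followed here across the jejunal mucosa of mice with and without the fatty acid receptor FFA2 in adipocytes. The 10 were the apolipoprotein genes Apob, Apoa1, Apoa4, Apoc3 and Apoc2, the lipid transfer gene Mttp, the editing enzyme gene Apobec1, the export genes Sar1b and Surf4, and Gm47528, a transcript annotated on the strand opposite Apoa4. They were matched by symbol to 10 of the 56980 gene identifiers in the count tables, of which 32652 had at least 1 count. Gm47528 was selected on its normalized counts, which were lower in the knockout in these same libraries, so its genotype difference is given below as a description without a test. The other 9 belong to the pathway by function, and were also listed with earlier results of these data known.

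All mice were male, 12 weeks old when a Western diet began to which 10% fructooligosaccharides (FOS) had been added, and jejunal mucosa was taken after 2 weeks at thermoneutrality. The 4 FFA2 fl/fl mice (floxed controls) carried the floxed Ffar2 gene without Cre, and the 4 Adipoq-F2-KO mice carried the floxed gene and an Adiponectin-Cre transgene. That promoter is active in adipocytes, so the deletion was not directed at the intestine. The question put to these libraries was whether genes of fat digestion and absorption differed between the genotypes.

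As background, apolipoprotein B is lipidated as it enters the endoplasmic reticulum, with microsomal triglyceride transfer protein (Mttp) supplying the lipid, and the resulting particle is carried to the Golgi in large COPII-coated vesicles that need the GTPase SAR1B. Apolipoproteins A-I, A-IV and C-III join the particle, and the enzyme APOBEC1 edits a codon of the Apob message so that enterocytes make the short form, apoB-48. Loss of Mttp, Apob or Sar1b function in patients causes fat malabsorption with lipid-laden enterocytes.

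Total counts ran from 6007654 to 21712776 per library. Floxed library 3 and Adipoq-F2-KO libraries 3 and 4 held fewer than 10000000 counts and are called shallow, the other 5 deep. The shallow libraries also stood apart in mitochondrial share, 11.6% to 12.2% of counts against 4.37% to 10.1% in the deep ones, and in their scores for distal small intestine markers (2.25, 1.30 and 2.30 on a centred log2 scale, with all deep libraries below 0). Their adipose tissue marker scores, 2.65, 1.56 and 1.51, were likewise above those of the deep libraries, -1.38 to -0.78. The 10 markers of villus enterocytes were all present, with a summed level of 438559 to 483434 normalized counts in floxed controls and 458629 to 471377 in Adipoq-F2-KO. Summed smooth muscle markers ran from 3768 to 30426 in floxed controls and from 4149 to 12587 in Adipoq-F2-KO. Summed adipose tissue markers ranged over 4.24 to 341 and 6.32 to 158, leukocyte markers over 1532 to 3809 and 2210 to 3267, and crypt markers over 1578 to 2633 and 1910 to 2510, floxed controls first. Ffar2, the targeted gene, had 2 to 18 counts in every library of both genotypes, which checks nothing about a deletion confined to adipocytes. Of 10 liver markers, Fgb, Fgg and Ahsg were at 0 in all 8 libraries and 7 had no more than 24 counts in all, while Cps1, which enterocytes also express, was abundant.

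The Apoa4 locus and the Apob editing site are shown first, because the countable bases at the former and the edited codon at the latter bear on what these libraries measured. Positions are from GENCODE M21 on GRCm38, the build named in the deposited labels. Apoa4 (ENSMUSG00000032080) lies at chr9:46240696-46243459 on the plus strand in 3 exons. Gm47528 (ENSMUSG00000111282), annotated as a transcript that still needs experimental evidence, is a single exon of 2192 bases at chr9:46239841-46242032 on the minus strand. Of its bases, 634 lie opposite Apoa4 exons 1 and 2, 703 lie opposite Apoa4 introns 1 and 2, and 855 lie before the Apoa4 start. The sequences below, on the Apoa4 strand, come from these transcript models. They show intron 1, one of the stretches that was countable for Gm47528, with the first and last 2 bases of the intron in capitals, and the neighbouring coding exon 2, which both models share and which is in lower case throughout.
Apoa4 intron 1, chr9:46241203-46241467: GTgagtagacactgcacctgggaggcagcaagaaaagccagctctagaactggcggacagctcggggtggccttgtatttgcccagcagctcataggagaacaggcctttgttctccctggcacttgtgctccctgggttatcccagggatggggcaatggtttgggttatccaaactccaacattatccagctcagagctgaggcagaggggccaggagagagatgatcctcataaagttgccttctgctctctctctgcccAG
Apoa4 exon 2, chr9:46241468-46241594: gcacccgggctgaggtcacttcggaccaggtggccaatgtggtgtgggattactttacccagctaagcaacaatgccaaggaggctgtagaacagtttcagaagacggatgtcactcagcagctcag

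Directly upstream lie 100 bases before the annotated Apoa4 start, which Gm47528 also covers. Capitals mark a match to the letters CAAAGTNCA, a form of the DR1 element that nuclear receptors such as HNF4A bind, which ends 25 bases before the start.
Before Apoa4, chr9:46240596-46240695: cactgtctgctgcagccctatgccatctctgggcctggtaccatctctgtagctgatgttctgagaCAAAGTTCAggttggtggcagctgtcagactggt

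The same letters, read on both strands, occurred in 464 of 32851 promoter windows of 300 bases from RefSeq on the same build (1.41%), and in those of Apoa4 and Apobec1 among the 8 of the 10 genes that had a window. A match of letters is a description and says nothing about binding.

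The counts at this locus depended on how overlapping genes were counted. Among genes lying wholly inside exons of an opposite-strand gene with at least 1000 counts, 2 of 113 had any count (1.77%), against 21985 of 39700 genes that share no exon base (55.4%). Of 207 genes wholly inside exons of a gene on the same strand, 0 had a count. Of 173 genes lying in large part inside exons of such an opposite-strand gene, but with 100 or more free bases, 157 had a count (90.8%). The strand setting is not given. It is inferred from these counts that reads over bases shared by exons of either strand were counted for neither gene, without use of strand. On that inference and by the M21 models, Apoa4 kept 549 of its 1815 exon bases for counting, since Gm47528 and Gm10680 lie opposite the rest, and Gm47528 kept 1558. With strand unused, the reads counted for Gm47528 over the 703 intronic bases cannot be told apart from reads of unspliced Apoa4 RNA.

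**Figure D1:**
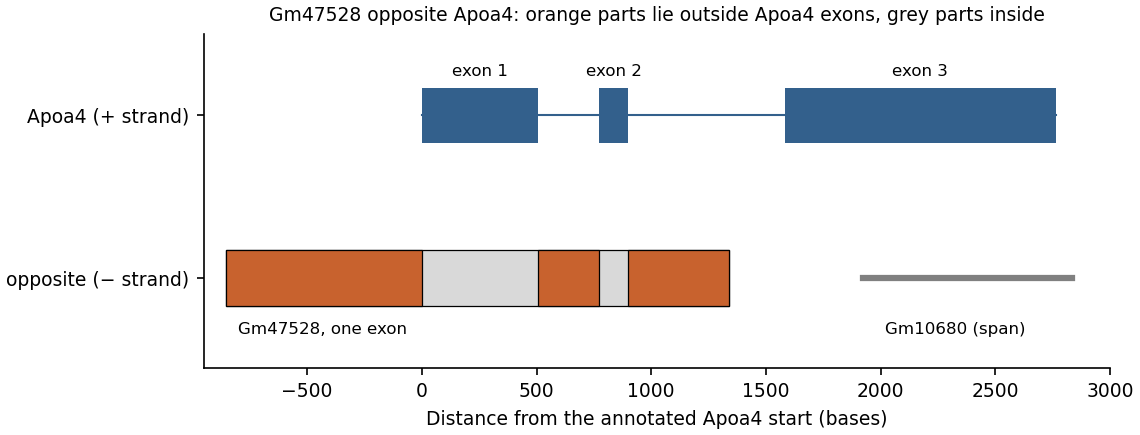
Map of Apoa4 (3 exons, blue, joined by introns) and of the transcripts opposite it, by distance in bases from the annotated Apoa4 start. Orange marks the 1558 bases of Gm47528 outside Apoa4 exons, on which its counts rest if strand was not used, as inferred, and grey the 634 bases inside Apoa4 exons 1 and 2.

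Apob (ENSMUSG00000020609, chr12:7977648-8016835, plus strand, 29 exons) was the most abundant of all tested genes by mean normalized count, that is, counts divided by the library's DESeq2 size factor. It took 1.93% to 2.40% of all counts in a library. The floxed controls 1 to 4 had 265958, 245815, 292822 and 231247 normalized counts, and Adipoq-F2-KO 1 to 4 had 288129, 229649, 259278 and 279195. The genotypes overlapped over nearly their whole range, and the highest library was 1.28 times the lowest. The floxed mean was 258960 ± 26686 and the Adipoq-F2-KO mean 264063 ± 25919 (SD, n = 4 for both). In the DESeq2 fit over 15986 genes, Adipoq-F2-KO was 1.02-fold of floxed controls (95% interval 0.874 to 1.19, adjusted p = 0.999798). In whole mucosa, fewer cells of a type and less RNA per cell cannot be told apart, for this and all genes below.

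The codon that APOBEC1 edits lies in exon 26 of Apob, and its cytosine, in capitals, is coding base 6535, the first base of codon 2179. Editing turns this CAA into a stop codon, and the sequence that follows 5 bases later is the mooring site that recruits the editing complex.
Apob editing site, chr12:8008039-8008078: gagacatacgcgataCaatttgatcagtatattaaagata

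Gene counts do not resolve edited from unedited Apob RNA, so the share edited was not measured. Apobec1 (ENSMUSG00000040613, chr6:122577792-122602444, minus strand) was among the less abundant genes of the set, with 611, 531, 468 and 596 normalized counts in floxed controls 1 to 4. In Adipoq-F2-KO 1 to 4 it had 608, 452, 461 and 412. Adipoq-F2-KO libraries 2 to 4 were below all floxed controls and library 1 was not. The log2 fold change was -0.19 (SE 0.16, adjusted p = 0.999798 by DESeq2). Among the cofactors of the editing reaction, A1cf had a log2 fold change of 0.03, Rbm47 of 0.06 and Syncrip of 0.07, and none passed the test.

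Mttp (ENSMUSG00000028158, chr3:138089854-138144968, minus strand), whose product loads triglyceride onto apolipoprotein B, had 64668, 68949, 56995 and 71733 normalized counts in floxed controls 1 to 4. In Adipoq-F2-KO 1 to 4 it had 64870, 70554, 63105 and 65109. All 4 Adipoq-F2-KO values fell inside the floxed range, and the fold was 1.00 (95% interval 0.881 to 1.15, adjusted p = 0.999798). Its partner in the transfer complex, protein disulfide isomerase (P4hb), had a log2 fold change of 0.01. Of the Mttp exon bases, 589 of 6206 lie opposite Gm43691 and Trmt10a and, by the inference on strand above, were not counted. Gm43691, like Gm47528, is annotated on the opposite strand. It had 202 ± 67.4 normalized counts in floxed controls and 137 ± 24.8 (SD, n = 4 per genotype) in Adipoq-F2-KO. Its log2 fold change of -0.57 (SE 0.27) did not pass the DESeq2 test. The 565 bases of Gm43691 outside exons of other genes lie within the span of Mttp. Reads counted there cannot be told apart from reads of unspliced Mttp RNA.

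Apoa1, Apoc3 and Apoa4 lie within 14880 bases of each other on chromosome 9. Apoa1 (ENSMUSG00000032083, chr9:46228580-46230466, plus strand) encodes the main protein of high-density lipoprotein, which enterocytes also place on chylomicrons. Its normalized counts were 76646, 72126, 80748 and 67847 in floxed controls 1 to 4 and 66548, 63013, 74461 and 68619 in Adipoq-F2-KO 1 to 4. Adipoq-F2-KO libraries 1 and 2 were below all floxed controls, and libraries 3 and 4 were within their range. The fold was 0.917 (95% interval 0.809 to 1.04, adjusted p = 0.999798).

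Apoc3 (ENSMUSG00000032081, chr9:46232933-46235636, minus strand), which encodes an inhibitor of triglyceride clearance, had 6303, 5578, 4182 and 5263 normalized counts in floxed controls 1 to 4. In Adipoq-F2-KO 1 to 4 it had 4627, 4815, 4633 and 4501. The Adipoq-F2-KO libraries lay close together inside the wider floxed range, with an SD of 130 against 881. The fold was 0.870 (95% interval 0.731 to 1.04, adjusted p = 0.999798). The difference of the spreads was not tested.

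Apoa4, which encodes a chylomicron protein that rises with fat intake, had 58026, 59192, 59546 and 45435 normalized counts in floxed controls 1 to 4. Adipoq-F2-KO 1 to 4 had 58276, 49700, 80391 and 70050. Adipoq-F2-KO libraries 3 and 4, both shallow, were above all floxed controls, libraries 1 and 2 were not, and the shallow floxed library 3 was close to floxed libraries 1 and 2. The fold was 1.16 (95% interval 0.931 to 1.45, adjusted p = 0.999798). Over the 5 deep libraries the log2 fold change was -0.0082. Libraries 3 and 4 had the high distal and adipose marker scores given above, as did floxed library 3, and the part of those in the Apoa4 values was not tested.

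Gm47528 had 412, 288, 266 and 633 normalized counts in floxed controls 1 to 4, from 680, 547, 127 and 818 raw counts. In Adipoq-F2-KO 1 to 4 it had 234, 207, 144 and 145, from 296, 333, 72 and 77 raw counts. All 4 Adipoq-F2-KO libraries were below all 4 floxed controls, the pattern that led to its inclusion, and 1.02% of all tested genes had it. The mean was 400 ± 168 in floxed controls and 182 ± 45.0 (SD, n = 4 per genotype) in Adipoq-F2-KO, a fitted log2 difference of -1.13 (SE 0.29), given without a test. Floxed library 4 carried the highest value, and without it the log2 difference was -0.81. The lowest values of each genotype were in the shallow libraries, which were 1 of 4 floxed controls and 2 of 4 Adipoq-F2-KO, and over the deep libraries alone the log2 difference was -1.01. The part of the mitochondrial, distal and adipose differences of those libraries in these values was not tested. Across the 8 libraries Gm47528 varied 4.39-fold, more than any other of the 9 genes with a fitted change.

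The 9 genes with enough counts to be fitted are drawn by library in the plot of normalized counts. Of the 8 tested genes other than Gm47528, 0 passed an adjusted p of 0.05 with DESeq2, edgeR or limma-voom, and 0 had an unadjusted p under 0.05 with any of the 3 tools. Over all tested genes, 0.0375% passed the adjusted threshold with DESeq2, 0.0125% with edgeR and 0.00626% with limma-voom, and 3.03%, 3.48% and 4.30% had an unadjusted p under 0.05 with the same tools in that order. Their median log2 fold change was -0.08, beside -0.01 over all tested genes, and 3 were higher and 5 lower.

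**Figure D2:**
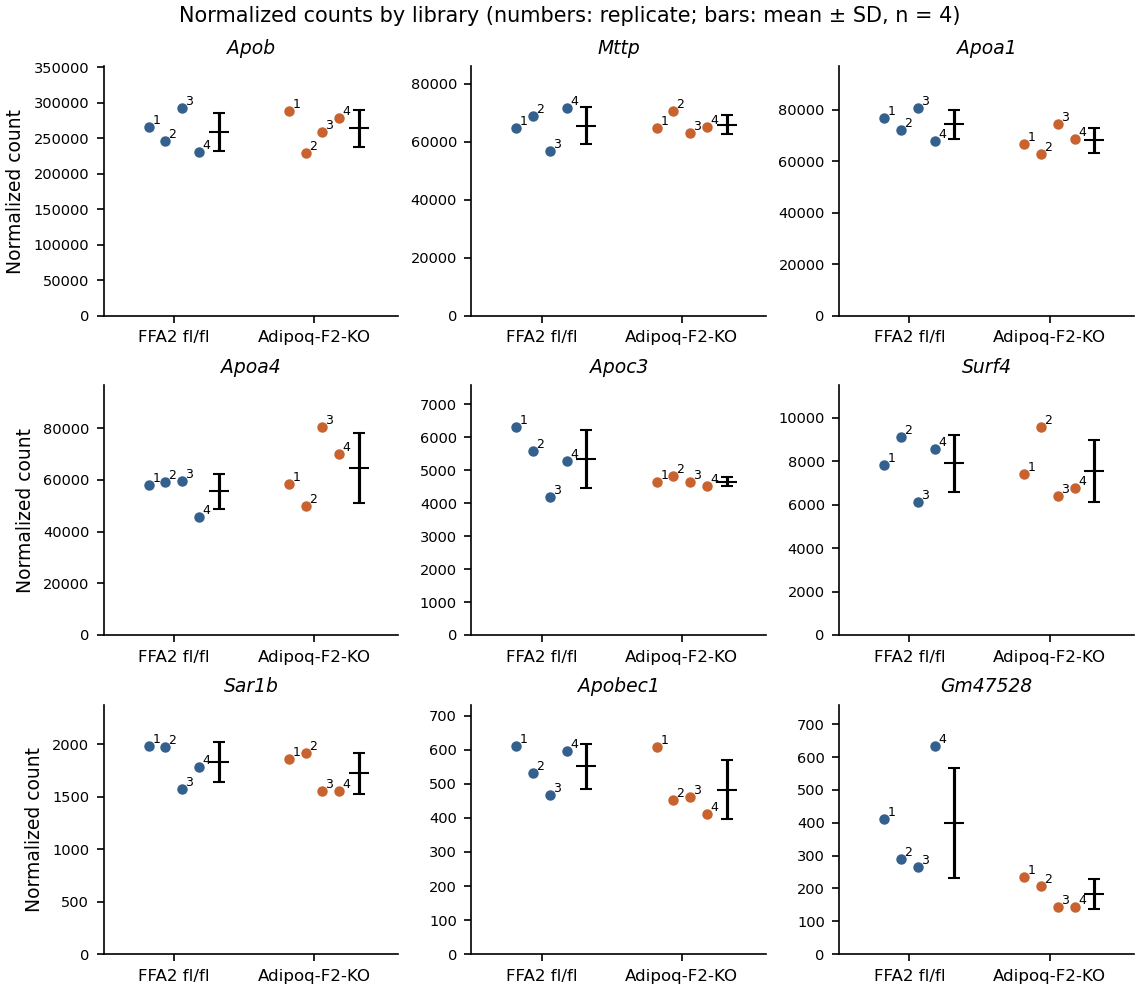
Normalized count of each gene in each library of FFA2 fl/fl (blue) and Adipoq-F2-KO (orange) mice, with replicate numbers and with bars for the mean ± SD (n = 4). Each vertical axis starts at 0, and only in the panel of Gm47528, chosen for it, do the genotypes not overlap.

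**Figure D3:**
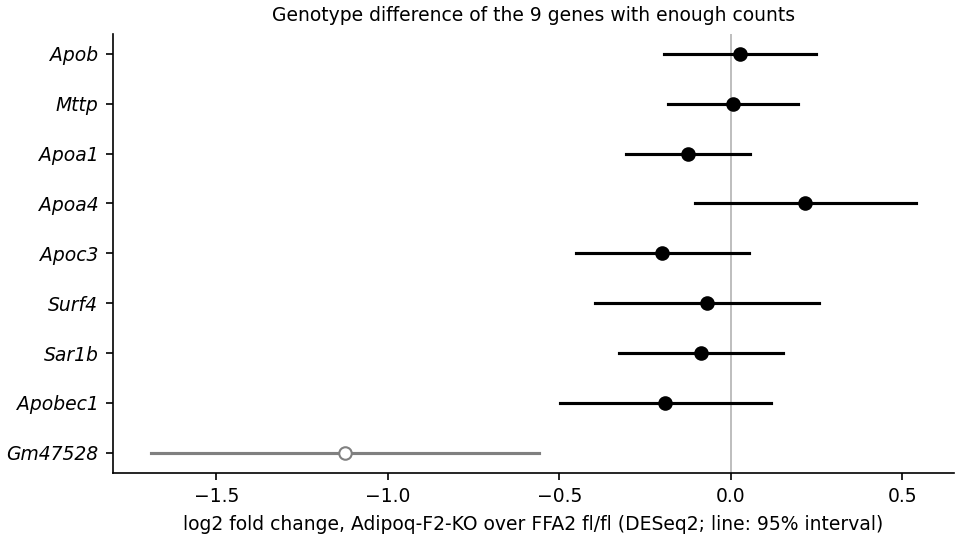
log2 fold change of each gene, Adipoq-F2-KO over FFA2 fl/fl, with the 95% interval from DESeq2. The intervals of the 8 filled points include 0, and the open grey point is Gm47528, which was chosen for its difference and was not tested.

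Sar1b and Surf4 serve export from the endoplasmic reticulum. Sar1b (ENSMUSG00000020386, chr11:51763687-51791925, plus strand) encodes the GTPase that starts the COPII coat, and had 1983, 1975, 1579 and 1788 normalized counts in floxed controls 1 to 4. In Adipoq-F2-KO 1 to 4 it had 1858, 1919, 1560 and 1557. The 3 lowest values were the 3 shallow libraries, of both genotypes. The fold was 0.941 (95% interval 0.798 to 1.11, adjusted p = 0.999798).

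Surf4 (ENSMUSG00000014867, chr2:26920040-26933928, minus strand) encodes a cargo receptor for lipoproteins, and had 7840, 9126, 6108 and 8586 normalized counts in floxed controls 1 to 4. In Adipoq-F2-KO 1 to 4 it had 7419, 9577, 6423 and 6764. Here too the shallow libraries of both genotypes were the 3 lowest. The fold was 0.953 (95% interval 0.760 to 1.20, adjusted p = 0.999798).

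Apoc2 (ENSMUSG00000002992, chr7:19671579-19677941, minus strand), whose product activates lipoprotein lipase, had 1 count in floxed library 4, 1 in Adipoq-F2-KO library 4 and 0 in the other 6, all under the floor of 3 counts. It did not enter the test. Of its 813 exon bases, 646 (79.5%) are also exons of Gm44805 on the same strand, and 167 were free for counting. Its level in the jejunum could not be read from these counts.

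Levels of different genes were compared per 1000 exon bases free of other genes. On that scale the median normalized count over the 8 libraries was highest for Apoa4, at 106983, followed by Apoa1 at 56936, Apob at 18847, Mttp at 11570, Apoc3 at 4659, Surf4 at 2432 and Sar1b at 1453. The ranges of these neighbours over the 8 libraries did not overlap. Apobec1, at 185, and Gm47528, at 160, were lowest among the fitted genes and overlapped each other. The level of Apoa4 was 668 times that of Gm47528 opposite it, and 284 times per 1000 of all exon bases. The place of Apoa4 depended on the length used: per 1000 of all its exon bases its median level was 32360, below Apoa1.

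The 10 genes together took 3.96% ± 0.24 of all counts in floxed controls and 3.99% ± 0.12 (SD, n = 4 per genotype) in Adipoq-F2-KO. Within this share, Apoa1 gave 1.35 ± 0.11 counts for each Apoa4 count in floxed controls and 1.08 ± 0.16 in Adipoq-F2-KO, with 3 of 4 Adipoq-F2-KO libraries below all floxed controls. The lowest of these ratios, 0.926 and 0.980, were in the shallow Adipoq-F2-KO libraries 3 and 4. The deep Adipoq-F2-KO libraries 1 and 2 had 1.14 and 1.27, beside a floxed range of 1.22 to 1.49. Apoa1 gave 0.288 ± 0.008 counts for each Apob count in floxed controls and 0.260 ± 0.026 in Adipoq-F2-KO, again with 3 of 4 below. The ratios were not tested. Mttp gave 0.257 ± 0.050 and 0.252 ± 0.037 counts for each Apob count, with overlapping ranges.

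Gm47528 was also set against Apoa4 library by library. For each 100 Apoa4 counts there were 0.710, 0.487, 0.446 and 1.39 Gm47528 counts in floxed controls 1 to 4 and 0.401, 0.415, 0.179 and 0.207 in Adipoq-F2-KO 1 to 4. All Adipoq-F2-KO values were below all floxed values, as the choice of Gm47528 makes likely, so this is a description. Across the 8 libraries the log2 values of the pair had a Pearson r of -0.766 and a Spearman rho of -0.690, given without a p because Gm47528 was chosen on these counts. With the genotype means removed, r was -0.783, also a description. Without Adipoq-F2-KO library 3 and floxed library 4, the farthest from the median of Apoa4, the pooled r was -0.355 and that with genotype means removed -0.593. Within floxed controls r was -0.914 and within Adipoq-F2-KO -0.832, with 4 libraries each and no test, and over the 5 deep libraries it was -0.448. The shallow libraries were too few for a value of their own.

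**Figure D4:**
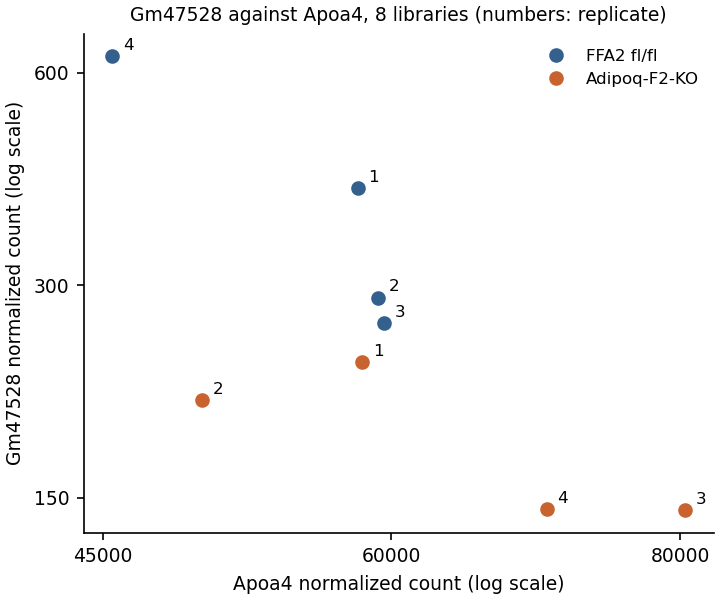
Gm47528 against Apoa4 in normalized counts, both on log axes, for 4 FFA2 fl/fl (blue) and 4 Adipoq-F2-KO (orange) libraries with their replicate numbers. Floxed library 4, upper left, had 633 and 45435, and Adipoq-F2-KO library 3, lower right, had 144 and 80391.

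Of the 28 pairs among the 8 tested genes, leaving out Gm47528, 0 passed an adjusted p of 0.05 and 6 had an unadjusted p under 0.05 (exact permutation). The pair with the smallest p was Mttp and Surf4, with a Pearson r of 0.880 (exact permutation p = 0.0025, adjusted 0.0701) and a rho of 0.833 (exact permutation p = 0.0154, adjusted 0.206), and r was 0.934 without the 2 libraries farthest from the median of Mttp. Among the neighbours on chromosome 9, r was 0.05 for Apoa1 and Apoc3, 0.41 for Apoa1 and Apoa4 and -0.32 for Apoa4 and Apoc3 (exact permutation, adjusted p = 0.944, 0.418 and 0.520). Relations of the 9 genes to the smooth muscle score, computed because the libraries differed widely in it, gave 0 that passed after adjustment over the 9. The largest was that of Apobec1, with r of -0.813 (exact permutation p = 0.0213, adjusted 0.192), rho of -0.714 (exact permutation p = 0.0576, adjusted 0.374) and r of -0.646 when the 2 libraries most distant in that score were left out. With genotype means removed the r of Apobec1 was -0.874 (permutation, adjusted p = 0.0551) and that of Gm47528, as a description, was -0.806. That permutation ran over all 8 libraries, not within genotype, so its p is approximate.

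Among the genes whose log2 levels followed Apoa4 most closely over the 8 libraries, of 10224 with a mean normalized count of at least 50, were Fancm (r = 0.941) and Igkv5-39 (0.938). For Apob they were Rock2 (0.977), Acvr2a (0.971) and Cd24a (0.960). For Gm47528 they were Slc25a25 (0.992), Gm9917 (0.965) and Cdc42se1 (0.964). None of these was one of the 10 genes. With 8 libraries and 10224 genes searched, such values are a description only.

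The other genes of the pathway were read from 3 lists. Of 29 matched secretion partners (COPII coat and cargo genes, lipid droplet, fatty acid binding and editing cofactor genes), all were tested, 13 were higher and 16 lower, and 0 passed an adjusted p of 0.05 with DESeq2, edgeR or limma-voom. Their median log2 fold change was -0.01, the same as over all genes to 2 decimals. With each tool 1 had an unadjusted p under 0.05, which was 3.45% of the list, beside 3.03% of all tested genes by DESeq2. By DESeq2 that gene was Pla2g12b, which acts in lipidation of lipoproteins in the endoplasmic reticulum. Pla2g12b had 851 ± 33.1 normalized counts in floxed controls and 712 ± 63.3 (SD, n = 4 per genotype) in Adipoq-F2-KO. Its log2 fold change was -0.25 (SE 0.10, adjusted p = 0.999798 by DESeq2), and 4 of 4 Adipoq-F2-KO libraries were below all floxed controls, as in 1.02% of all tested genes.

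Of 15 other apolipoprotein and lipoprotein genes, 8 had enough counts to be tested, 5 were higher and 3 lower, 0 passed with any of the 3 tools, and the median log2 fold change was 0.10. With each tool 1 had an unadjusted p under 0.05, which was 12.5% of the 8, beside 3.03% to 4.30% of all tested genes by tool. By DESeq2 that gene was Clu, which encodes clusterin (apolipoprotein J). Clu had 58.9 ± 41.4 normalized counts in floxed controls and 132 ± 39.0 (SD, n = 4 per genotype) in Adipoq-F2-KO. Its log2 fold change was 1.19 (SE 0.47, adjusted p = 0.999798 by DESeq2), and 3 of 4 Adipoq-F2-KO libraries were above all floxed controls. With the smooth muscle score as a term in the model its adjusted p was 0.00263. Apoa5, a neighbour of Apoa4 on chromosome 9 that is expressed mainly in liver, had 0 to 11 counts in a library and was not tested.

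Of 17 regulators of apolipoprotein genes, 16 were tested, 8 were higher and 8 lower, and 0 passed with any of the 3 tools. Their median log2 fold change was -0.03, and 3 had an unadjusted p under 0.05 with DESeq2 (18.8%, beside 3.03% of all tested genes) and 2 with each of the other tools (beside 3.48% with edgeR and 4.30% with limma-voom). Ppargc1a, a coactivator of HNF4A, had 2158, 2049, 2192 and 2196 normalized counts in floxed controls 1 to 4 and 2807, 2715, 2385 and 2685 in Adipoq-F2-KO 1 to 4. All 4 Adipoq-F2-KO libraries were above all floxed controls, as in 1.10% of all tested genes, and the log2 fold change was 0.30 (SE 0.08, adjusted p = 0.232 by DESeq2). Without Adipoq-F2-KO library 3 its adjusted p was 0.0401. Nr1h3, the oxysterol receptor LXR alpha, had a log2 fold change of -0.28 (SE 0.12) and Hnf4g of 0.43 (SE 0.21), each with an adjusted p of 0.999798 by DESeq2. Hnf4a, an activator of several apolipoprotein genes, had a log2 fold change of 0.19 (SE 0.12) and the same adjusted p.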

How the data were processed

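Polyadenylated RNA of jejunal mucosa was sequenced from 4 FFA2 fl/fl and 4 Adipoq-F2-KO mice with a stranded kit, from one end over 75 bases. The authors trimmed reads with Trimmomatic, aligned them with STAR and counted them per gene with featureCounts. The deposited values are raw read counts, neither normalized nor pooled, and the labels name GRCm38. Tool versions, the strand setting and the annotation release are not given in the sources used here. Identifiers were matched to GENCODE M21, which holds 52125 of the 56980. The remaining 4855 include identifiers numbered above its highest, so the gene models used for counting were newer and may differ from those described.

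Groups and replicate numbers came from the sample titles, each mouse giving 1 library. Genes that reached 10 counts in 4 or more libraries were tested with DESeq2 1.42.0 in R 4.3.3, the tool of the study, with genotype as the only term, two-sided Wald tests and Benjamini-Hochberg adjustment over 15986 genes. Normalized counts are counts divided by DESeq2 size factors. edgeR 4.0.16 (quasi-likelihood) and limma-voom (limma 3.58.1) were alternatives, as were TMM scaling, no count filter, a smooth muscle covariate, a replicate block, the deep libraries alone and leaving out each library. Correlations used log2(normalized count + 1) and exact two-sided permutation over pairings (scipy 1.17.1). Marker scores are the mean over markers of log2 values centred on the 8 libraries. The floor of 3 counts covers counting error only.

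The 10 genes and all lists were chosen with earlier results of these data known. From each list, up to 3 tested genes with the smallest unadjusted p under 0.05 were named. For Apoa4, Apob and Gm47528, the 3 genes with the highest Pearson r were named, and genes overlapping one of the 10. For Apoa4, 1 of these is not reported here. P4hb, A1cf, Rbm47, Syncrip, Hnf4a and Apoa5 lie outside this rule and were chosen after their values were seen. Vamp7 was not matched. The scripts were tested on simulated counts. In 12 pairs of libraries within a genotype, the chi-square per gene was 5.04 to 56.6, so none was a duplicate.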

Additional observations from a re-analysis of the deposited data

Results flagged for a closer look

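Of 22 groups of 4 libraries checked for a value far from the others, 1 stood out: Apoa4 in FFA2 fl/fl replicate 4, at 45435 normalized counts, below the 3 other floxed controls, which lay between 58026 and 59546. Its gap to the nearest of them was 0.892 of the range of the group, above Dixon's critical value for 4 samples. Chance alone gives such a value in about 1 of 20 groups. The same library had the highest Gm47528 count, 633 normalized counts.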

How the results depend on the processing

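Over 239 recomputed values, 214 were classed as unchanged. These kept their direction and their side of the threshold, or moved by less than the spread between replicates. Counts of genes were classed as unchanged when they stayed within a set ratio of the main count. Of the 8 tested genes other than Gm47528, 0 passed an adjusted p of 0.05 under all 16 alternatives. The log2 difference of Gm47528, given without a test, stayed between -1.27 and -0.81. The count over all genes was less steady: 6 by DESeq2, but 2 with edgeR, 1 with limma-voom, 3 with no count filter, 81 in the deep libraries alone, and 1 to 108 when 1 library was left out (1 without floxed library 1, 2 without floxed library 4, 18 without floxed library 2 and 108 without floxed library 3). With a replicate block it was 11. Same-numbered libraries of the 2 genotypes correlated in their deviations at 0.607, 0.418, 0.0371 and -0.478, so the numbers did not pair them. The block called 0 of the 8 tested genes other than Gm47528.

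Of the other pathway genes, 0 passed by DESeq2, but 1 did with a smooth muscle covariate (Clu) and 1 without Adipoq-F2-KO library 3 (Ppargc1a). Fold changes near 0 turned sign in places, with no call. Apob fell to -0.022, -0.015 and -0.0014 on the log2 scale without floxed 4, Adipoq-F2-KO 1 and Adipoq-F2-KO 4, and reached 0.094 without floxed 3. Mttp was -0.0016 with edgeR and -0.0016 with TMM factors, -0.017 in the deep libraries, -0.053 without floxed 3 and -0.029 without Adipoq-F2-KO 2, and reached 0.053 without floxed 4. Apoa4 was -0.0082 in the deep libraries. Surf4 was 0.0061 without floxed 2 and 0.0013 without Adipoq-F2-KO 3, and -0.21 at the lowest without Adipoq-F2-KO 2. The relation of Gm47528 to Apoa4 had r of -0.602 without floxed 4, -0.692 without Adipoq-F2-KO 3 and -0.720 without Adipoq-F2-KO 4, and was strongest, -0.929, without Adipoq-F2-KO 2. With genotype means removed it was -0.783. The cause of these changes was not tested. Scaling to the 10 villus enterocyte markers was added after seeing the data, and called 0 of the 8 tested genes other than Gm47528. Gm47528 rested on 72 to 127 reads in the shallow libraries, and Apoc2 was under the floor in all 8.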
